A study of Bos taurus with 56 samples.

Results

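The epithelium of the oviductal ampulla ipsilateral to the corpus luteum (CL) was compared between lactating cows and heifers. The members were the libraries whose column names gave that region, that side and those groups, 4 from lactating cows and 5 from heifers, 9 of the 56 libraries in the series. All animals were cyclic Holsteins that were not inseminated, slaughtered on Day 3 after an estrus induced with a progesterone device, a prostaglandin analogue and buserelin. The lactating cows were primiparous, were milked from calving on and were at about 60 days post-partum. The heifers were nulliparous, so lactation and a previous calving cannot be told apart in this comparison. The other libraries came from the contralateral ampulla and from the isthmus on both sides, and from 5 primiparous non-lactating cows that were dried off at calving. Epithelial cells were scraped from the tissue, and each library came from 1 animal.

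The ampulla is the upper part of the oviduct, where fertilization takes place. Its epithelium is made of ciliated cells, which move the oocyte and the fluid, and of secretory cells, which release proteins such as oviductin into the lumen. The epithelium divides and renews over the estrous cycle under estrogen and progesterone, and it carries a mucosal immune defence of complement proteins, transported immunoglobulin and antigen presentation. Lactation draws glucose and lipid to the udder, and the comparison addresses whether the metabolic state of the dam shows in the RNA of these cells.

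The sum of counts on genes was 4332837 to 5554403 per library in the lactating cows and 3771989 to 5245121 in the heifers, and levels below are CPM, the count of a gene relative to the TMM-scaled total of its library, written in the order lactating cows A to D and heifers A to E. A pair of the 9 libraries carried an animal tag that their profile did not match. Over 200 genes that vary between animals, the library of heifer B correlated best with the other libraries of a non-lactating cow (r = 0.87) and not with the others of its own animal (r = 0.09). The ipsilateral ampulla library of that cow, non-lactating cow B, in turn matched the other libraries of heifer B (r = 0.85) and not those of its own animal (r = 0.04), and if these libraries were exchanged, the values of heifer B are those of a non-lactating cow. The library of lactating cow B carried the tag of a non-lactating cow, but its profile matched the remaining libraries of lactating cow B (r = 0.89), so that label and profile gave the same group. For heifer B they did not, and results that rest on it are given with and without it. All 8 ciliated cell markers and all 6 secretory epithelium markers had counts in each of the 9 libraries, and OVGP1, the oviductin gene, was at 6948, 14777, 2454 and 8641 CPM in lactating cows A to D and 10609, 8003, 7305, 10084 and 14556 CPM in heifers A to E. The groups overlapped for OVGP1, whose log2 fold change of -0.29 ± 0.39 (SE) was smaller than its error. TAGLN, 1 of 6 smooth muscle markers, and DPT, 1 of 7 fibroblast markers, were at 0 counts in all 9 libraries. Others had counts, so these zeros do not show that such cells were absent. ACTA2 of smooth muscle had means of 11.1 CPM in the lactating cows and 13.6 CPM in the heifers. COL1A2 of fibroblasts had means of 20.4 and 21.3 CPM in that order. The hemoglobin genes HBA, HBB and HBM were at 0 counts in all 9 libraries.

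**Figure D1:**
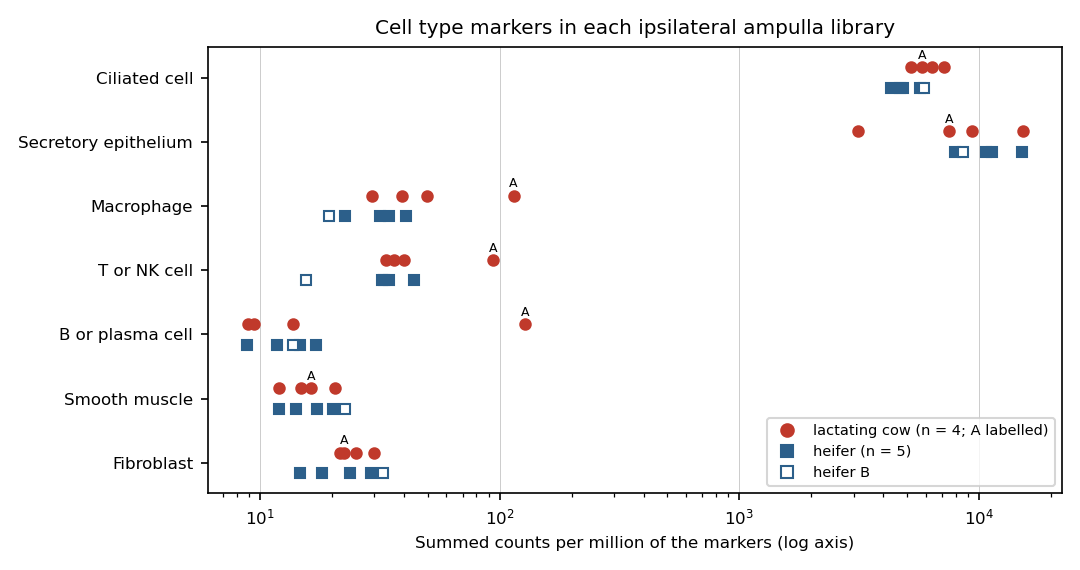
Summed level of the markers of each cell type, in CPM on a log axis, with 1 point per ipsilateral ampulla library (circles: 4 lactating cows, squares: 5 heifers, open square: heifer B). Lactating cow A lies apart from the other libraries for macrophage, T or NK cell and B or plasma cell markers, at 114, 94.0 and 127 CPM, while the smooth muscle and fibroblast sums of the groups overlap.

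Immune cell markers set lactating cow A apart. The 8 macrophage markers summed to 114, 39.1, 29.4 and 49.8 CPM in lactating cows A to D and 34.5, 19.4, 40.6, 31.6 and 22.7 CPM in heifers A to E. The 9 T or NK cell markers summed to 94.0, 33.4, 36.4 and 39.9 CPM in lactating cows A to D and 44.0, 15.6, 34.5, 32.2 and 32.9 CPM in heifers A to E. Lactating cow A was the highest library for both sums, and of the others lactating cow D lay above the heifers for the macrophage markers and none did for the T or NK cell markers. The 8 B or plasma cell markers summed to 127, 13.7, 8.91 and 9.45 CPM in lactating cows A to D and 17.1, 13.7, 8.78, 14.7 and 11.8 CPM in heifers A to E, of which IGJ, the joining chain of secreted antibodies, made up 121 CPM in lactating cow A. CD79B and PAX5, which define B cells, were at 0 counts in all 9 libraries, and TYROBP, a myeloid adaptor, was at 2.99 CPM or below. The 6 endothelium markers summed to 384, 154, 389 and 251 CPM in lactating cows A to D and 158, 145, 117, 253 and 131 CPM in heifers A to E, where lactating cows and heifers overlapped and most of the sum was KDR, a receptor of VEGF. Of the 5 endothelium markers tested, EMCN, KDR and VWF were higher in the lactating cows at an unadjusted edgeR p under 0.05, each with overlap. The share of all genes tested that was higher at that threshold was 4.20%. The others did not reach it, TEK at a log2 fold change of 0.17 and PECAM1 in the other direction at -0.39. In such libraries fewer cells of a type and less RNA per cell cannot be told apart.

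Across the 13918 genes tested, no gene passed an adjusted p under 0.05 by the quasi-likelihood test of edgeR, adjusted after Benjamini and Hochberg (0% called, with a lowest adjusted p of 0.515). At an unadjusted p under 0.05 the same test had 995 genes (7.15%), of which 584 were higher in lactating cows (4.20%) and 411 were lower (2.95%). DESeq2's Wald test called 22 genes at an adjusted p under 0.05 (0.172% of 12825), 15 of them higher and 7 lower in lactating cows, and limma-voom called 0 with 989 genes at an unadjusted p under 0.05. The 22 genes had an unadjusted edgeR p under 0.01 each, and the groups did not overlap for 13 of the 15 higher, against 0.963% of all genes tested, and for 6 of the 7 lower, against 1.04%. Both were read on the same libraries that DESeq2 had used to pick the 22 genes, so they are no independent support for the calls. Genes called by DESeq2 alone are described as such below, and every log2 fold change is lactating cows over heifers by edgeR with its SE. Counts of list members at an unadjusted edgeR p under 0.05 on the 9 libraries are read against the 4.20% of all genes higher and 2.95% lower.

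**Figure D2:**
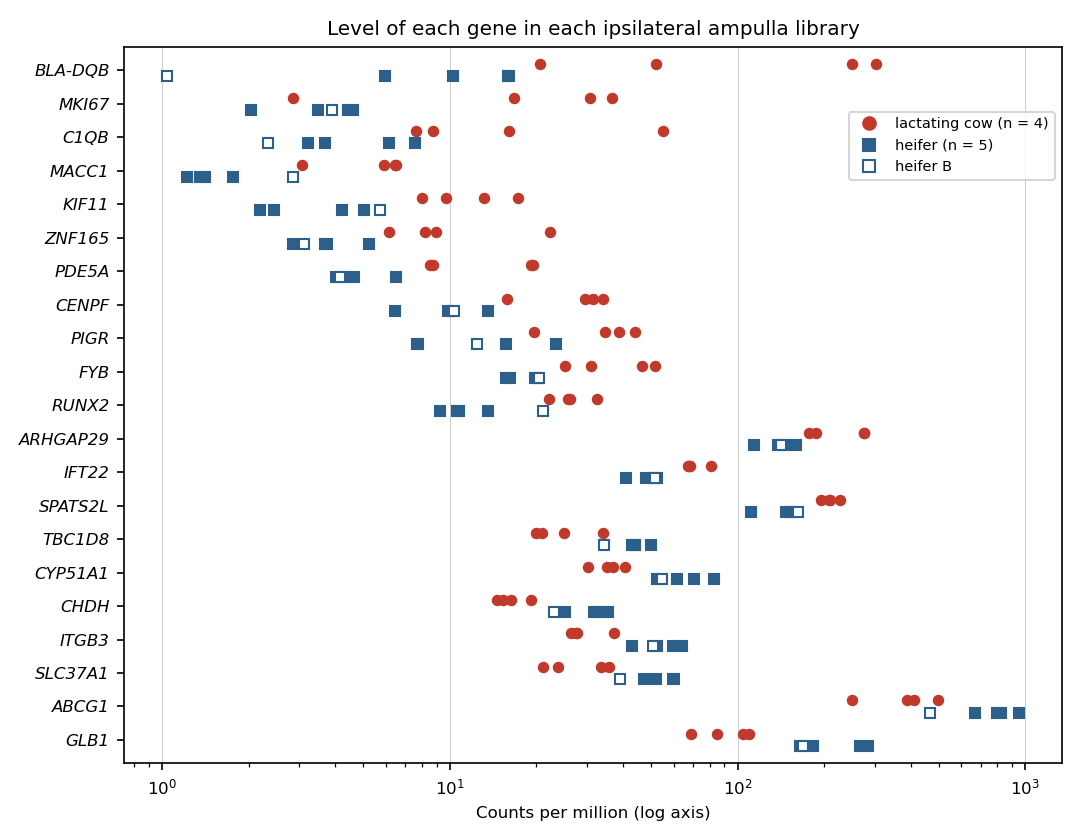
Level in CPM on a log axis of 21 of the 22 genes called by DESeq2 (the other is an unnamed locus), with 1 point per ipsilateral ampulla library (circles: 4 lactating cows, squares: 5 heifers, open square: heifer B), in the order of the log2 fold change. The circles and squares share no range for 18 of the 21 genes and overlap for MKI67, PIGR and ABCG1.

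Genes of cell division were higher in the lactating cows. Of 41 tested members of a list of mitosis genes, 39 had a log2 fold change above 0, against 50.5% of all genes tested, and the median of the list was 0.58, against 0.00 over all genes. At an unadjusted edgeR p under 0.05, 18 members were higher, against 4.20% of all genes tested, and 1 was lower, against 2.95%. CENPF, a kinetochore protein of dividing cells, was at 31.4, 34.2, 29.6 and 15.8 CPM in lactating cows A to D and 6.43, 10.4, 9.88, 10.2 and 13.6 CPM in heifers A to E. Every lactating cow lay above every heifer, and the means were 27.8 ± 8.18 CPM in the lactating cows (SD, n = 4) and 10.1 ± 2.53 CPM in the heifers (SD, n = 5). CENPF had a log2 fold change of 1.48 ± 0.26 (SE), with an edgeR adjusted p of 0.515 and an adjusted p of 7.67e-04 by DESeq2. KIF11, the kinesin that keeps the poles of the spindle apart, was at 13.2, 17.3, 9.67 and 8.03 CPM in lactating cows A to D and 4.22, 5.70, 2.20, 2.44 and 5.04 CPM in heifers A to E. The groups did not overlap for KIF11, at a log2 fold change of 1.64 ± 0.34 and an adjusted p of 0.0126 by DESeq2. MKI67, which encodes the proliferation antigen Ki-67, was at 36.5, 16.7, 2.84 and 30.7 CPM in lactating cows A to D and 4.42, 3.89, 4.61, 2.04 and 3.49 CPM in heifers A to E. Lactating cows A, B and D were above all heifers, whereas lactating cow C lay within their range. MKI67 had a log2 fold change of 2.57 ± 0.54 (DESeq2 adjusted p = 0.00426). It was the single gene that edgeR called when lactating cow C was left out, at 2.93 with an adjusted p of 0.0108. That fit dropped the only lactating cow within the range of the heifers for MKI67, so it is no further support.

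Other members of the list were not called by DESeq2. KIF20A, a kinesin of cytokinesis, ranged over 2.09 to 4.02 CPM in the lactating cows and 0.201 to 1.43 CPM in the heifers without overlap (log2 fold change 1.70 ± 0.50, edgeR adjusted p = 0.515). ASPM, a protein of the spindle poles, was at 37.6, 52.8, 42.1 and 26.7 CPM in lactating cows A to D and 11.2, 28.5, 11.6, 5.70 and 31.6 CPM in heifers A to E. Heifers B and E reached the level of lactating cow D for ASPM (log2 fold change 1.19 ± 0.41, edgeR adjusted p = 0.522). CDC20, which activates the anaphase-promoting complex, ranged over 4.39 to 7.22 CPM in the lactating cows and 1.02 to 4.07 CPM in the heifers, without overlap, and TOP2A, which untangles chromosomes, ranged over 9.31 to 20.4 CPM in the lactating cows and 3.41 to 12.2 CPM in the heifers. RACGAP1, a regulator of cytokinesis, was at 64.8, 34.6, 38.9 and 42.0 CPM in lactating cows A to D and 24.9, 34.0, 30.5, 23.0 and 26.1 CPM in heifers A to E, with a log2 fold change of 0.72 ± 0.20. CCNB1, the cyclin that drives entry into mitosis, was the exception. Its level was 0.878, 6.27, 0.948 and 0.945 CPM in lactating cows A to D and 10.6, 4.67, 6.59, 5.50 and 6.39 CPM in heifers A to E, low in lactating cows A, C and D and within the range of the heifers in lactating cow B (log2 fold change -1.55 ± 0.57, edgeR adjusted p = 0.565). The summed level of the 41 genes was 634, 625, 549 and 484 CPM in lactating cows A to D and 334, 438, 329.9, 351 and 449.9 CPM in heifers A to E, so that the lowest lactating cow stood above the highest heifer. Without heifer B the median log2 fold change of the list was 0.73, with 18 members higher and 1 lower at an unadjusted p under 0.05. The 42 tested genes of DNA replication had a median of 0.22, with 33 above 0 but only 3 higher and 0 lower at an unadjusted p under 0.05. Those 3 were MCM10, which starts replication forks (log2 fold change 1.02 ± 0.32), BRCA2, which repairs them (0.71 ± 0.27), and MCM2, a subunit of the replicative helicase (0.51 ± 0.21), and for each of the 3 the groups overlapped.

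**Figure D3:**
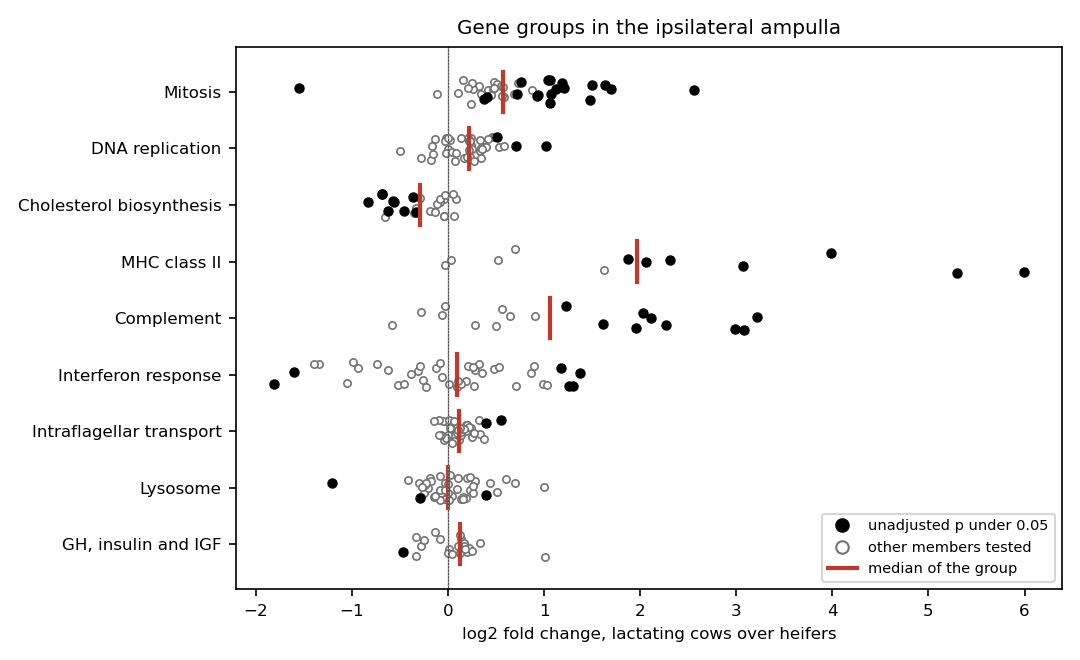
Log2 fold change of each tested member of 9 gene lists, lactating cows over heifers, in the ipsilateral ampulla (filled: unadjusted edgeR p under 0.05, open: other members, bar: median of the list, dotted line: median of all genes). Mitosis, MHC class II and complement genes lie mostly above 0, with medians of 0.58, 1.97 and 1.07, and cholesterol biosynthesis genes mostly below, with a median of -0.29.

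MHC class II genes, whose products present peptides to helper T cells, were highest in lactating cows A and C. Of 12 tested members of the list, 11 were above 0, against 50.5% of all genes tested, and 7 were higher at an unadjusted edgeR p under 0.05, against 4.20%, with none lower and a median log2 fold change of 1.97. BLA-DQB, a beta chain of the DQ molecule, was at 251, 52.0, 304 and 20.6 CPM in lactating cows A to D and 16.1, 1.04, 5.93, 15.9 and 10.3 CPM in heifers A to E. All 4 lactating cows lay above the heifers, and heifer B was the lowest library. BLA-DQB had the largest difference among the genes called by DESeq2, a log2 fold change of 3.99 ± 0.74 with an adjusted p of 0.0169, and 3.72 without heifer B. CIITA, the transactivator that switches class II genes on, was at 97.0, 7.41, 112 and 10.6 CPM in lactating cows A to D and 9.04, 2.59, 2.20, 12.6 and 7.36 CPM in heifers A to E. CD74, the invariant chain, was at 2674, 147, 1171 and 279 CPM in lactating cows A to D and 169, 106, 170.3, 478 and 165 CPM in heifers A to E. Both had high levels in lactating cows A and C, while lactating cows B and D lay within the range of the heifers. The differences were 3.07 ± 0.76 for CIITA and 2.32 ± 0.70 for CD74 on the log2 scale, and DESeq2 called neither. BOLA-DMA and BOLA-DMB, which load peptides, were high in the same libraries, at 60.1, 5.13, 51.0 and 5.91 CPM and 204, 17.3, 195 and 31.2 CPM in lactating cows A to D. BOLA-DQA5 and BOLA-DQB were near 0 in the heifers, at no more than 2.44 and 2.07 CPM, and were at 141, 0, 11.2 and 8.27 CPM and 80.5, 0, 7.39 and 5.91 CPM in lactating cows A to D. These genes belong to a multigene family with alleles that can share reads or fail to align, so their single values are uncertain.

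Complement genes had the same libraries at the top. Of 18 tested members, 14 were above 0, against 50.5% of all genes tested, and 9 were higher at an unadjusted edgeR p under 0.05, against 4.20%, with none lower and a median log2 fold change of 1.07. C1QB, a chain of the recognition molecule C1q, was at 55.2, 7.60, 16.1 and 8.74 CPM in lactating cows A to D and 3.21, 2.33, 6.15, 7.54 and 3.68 CPM in heifers A to E. The lowest lactating cow and the highest heifer differed by little, 7.60 against 7.54 CPM, but the groups did not overlap. The log2 fold change of C1QB was 2.27 ± 0.57 (DESeq2 adjusted p = 0.0332), and it fell short of the DESeq2 threshold without heifer B, at 2.12 with an adjusted p of 0.0637. C1S, a protease of the C1 complex, was at 171, 4.37, 41.7 and 10.6 CPM in lactating cows A to D and 3.61, 2.33, 6.37, 17.3 and 4.26 CPM in heifers A to E. SERPING1, the inhibitor of that complex, was at 204, 17.7, 136 and 35.4 CPM in lactating cows A to D and 13.5, 17.4, 20.2, 47.3 and 16.7 CPM in heifers A to E. For both genes lactating cows A and C stood above all heifers, and lactating cows B and D did not. C3, the central component, was the most abundant member, at 7611, 1857, 6392 and 3408 CPM in lactating cows A to D and 1434, 1490.5, 2081, 3672 and 1695 CPM in heifers A to E, with heifers C and D within the range of the lactating cows and a log2 fold change of 1.23 ± 0.38.

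The immune cell markers moved with part of these values. Without lactating cow A the median log2 fold change of the complement list went from 1.07 to 0.44, with 3 members higher at an unadjusted edgeR p under 0.05 in place of 9. C1QA, another chain of C1q, went from 1.96 to 0.44, and C1QB from 2.27 to 1.23. The median of the MHC class II list went from 1.97 to 1.34, with 7 members still higher at that threshold. BLA-DQB was at 3.65 and CIITA at 2.66 without lactating cow A. Lactating cow C, which had the highest BLA-DQB and CIITA of the 9 libraries, had macrophage markers at 29.4 CPM and T or NK cell markers at 36.4 CPM, within the ranges of the heifers, 19.4 to 40.6 and 15.6 to 44.0 CPM. The part of immune cells in the values of lactating cow A was not tested.

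Genes of cholesterol synthesis were lower in the lactating cows. Of 25 tested members of the list, 22 had a log2 fold change below 0, against 49.5% of all genes. At an unadjusted edgeR p under 0.05, 9 were lower, against 2.95% of all genes, and none was higher, against 4.20%. The median was -0.29, or -0.24 without heifer B, when 8 members were lower at that threshold. CYP51A1, which demethylates lanosterol, was at 40.8, 37.0, 30.1 and 35.2 CPM in lactating cows A to D and 61.6, 54.7, 70.7, 52.4 and 82.9 CPM in heifers A to E. The groups did not overlap, with means of 35.8 ± 4.42 CPM in the lactating cows (SD, n = 4) and 64.5 ± 12.5 CPM in the heifers (SD, n = 5). The log2 fold change was -0.83 ± 0.16, with an edgeR adjusted p of 0.515 and an adjusted p of 0.00778 by DESeq2. MSMO1, which acts in the next demethylations, was at 60.4, 72.7, 72.6 and 66.9 CPM in lactating cows A to D and 124, 80.9, 143, 109 and 93.9 CPM in heifers A to E. Heifer B was the lowest heifer for MSMO1, which DESeq2 did not call on 9 libraries (log2 fold change -0.68 ± 0.16, adjusted p = 0.0577) and called without heifer B (-0.77, adjusted p = 0.00571). HMGCS1, FDFT1, NSDHL, SQLE and SREBF2 were among the other members lower at an unadjusted edgeR p under 0.05, with log2 fold changes from -0.62 for FDFT1, the squalene synthase, to -0.33 for SREBF2, the transcription factor of the pathway. The summed level of the 25 genes was 1106, 1079, 969.8 and 1297 CPM in lactating cows A to D and 1483, 1219.8, 1599.6, 1238 and 1472 CPM in heifers A to E, with lactating cow D within the range of the heifers and lactating cows A, B and C below it.

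ABCG1, which exports cholesterol from cells, was lower as well, at 388, 497, 250.4 and 411 CPM in lactating cows A to D and 797, 468, 824, 667 and 954 CPM in heifers A to E. Heifer B and lactating cow B had close levels, and the other heifers lay above every lactating cow. ABCG1 had a log2 fold change of -0.93 ± 0.22 (DESeq2 adjusted p = 0.0342), and of -1.05 without heifer B. The list of cholesterol efflux genes did not share that direction, with 2 of 18 members higher and 1 lower at an unadjusted edgeR p under 0.05 and a median of -0.06. ABCA1, the exporter that loads nascent HDL, was at 64.5, 48.0, 55.9 and 38.0 CPM in lactating cows A to D and 41.2, 33.4, 39.1, 40.1 and 39.5 CPM in heifers A to E, higher at a log2 fold change of 0.43 ± 0.16, with an edgeR adjusted p of 0.557 and overlapping groups. LPCAT3, which remodels phospholipids, had a difference of 0.48 ± 0.20.

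GLB1, the lysosomal beta-galactosidase, had the lowest DESeq2 adjusted p, 1.20e-04. It was at 69.0, 109.8, 84.5 and 104 CPM in lactating cows A to D and 183, 169.5, 267, 165 and 284 CPM in heifers A to E. Every lactating cow lay below every heifer, and the means were 91.9 ± 18.7 CPM in the lactating cows (SD, n = 4) and 214 ± 57.2 CPM in the heifers (SD, n = 5). The log2 fold change was -1.20 ± 0.20. The lysosome list as a whole was balanced, with 22 of 44 members above 0, 1 higher and 2 lower at an unadjusted edgeR p under 0.05. CTSB, a cathepsin, was among the lower (log2 fold change -0.29 ± 0.13) and TPP1, a peptidase, was the higher one (0.40 ± 0.15).

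The 4 other genes that DESeq2 called lower were CHDH, ITGB3, SLC37A1 and TBC1D8. CHDH, which oxidizes choline to betaine in mitochondria, was at 14.6, 19.2, 16.3 and 15.4 CPM in lactating cows A to D and 31.7, 23.1, 35.3, 25.1 and 33.3 CPM in heifers A to E and did not overlap between groups (log2 fold change -0.85 ± 0.17, DESeq2 adjusted p = 0.0169). In the list of choline and one-carbon genes, 4 of 25 were lower and 1 was higher at an unadjusted edgeR p under 0.05, against 2.95% and 4.20% of all genes. PEMT, which makes phosphatidylcholine, was the other member without overlap, at 1.52 to 4.94 CPM in the lactating cows and 5.27 to 9.37 CPM in the heifers (log2 fold change -1.09 ± 0.36). ITGB3, the integrin beta 3 subunit, was at 27.6, 37.2, 26.3 and 27.4 CPM in lactating cows A to D and 59.6, 50.8, 63.9, 43.0 and 52.7 CPM in heifers A to E. The groups did not overlap, and lactating cow B stood apart from the other lactating cows (log2 fold change -0.85 ± 0.16, DESeq2 adjusted p = 0.00426). SLC37A1, a sugar phosphate transporter, was at 23.7, 33.4, 21.0 and 35.7 CPM in lactating cows A to D and 59.4, 39.1, 60.4, 52.0 and 47.4 CPM in heifers A to E (log2 fold change -0.85 ± 0.19, DESeq2 adjusted p = 0.0332). TBC1D8, a protein with a TBC domain, was at 19.9, 24.9, 20.8 and 34.0 CPM in lactating cows A to D and 44.2, 34.5, 49.8, 43.0 and 44.2 CPM in heifers A to E. For SLC37A1 and TBC1D8 heifer B was the heifer nearest to the lactating cows, by 35.7 against 39.1 CPM and 34.0 against 34.5 CPM. The log2 fold change of TBC1D8 was -0.78 ± 0.18 (DESeq2 adjusted p = 0.0342).

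Among genes of signalling and transcription that DESeq2 called higher, PDE5A, which degrades cGMP, was at 19.5, 8.74, 19.1 and 8.50 CPM in lactating cows A to D and 4.02, 4.15, 4.39, 6.52 and 4.65 CPM in heifers A to E. Lactating cows A and C had the highest levels, and every lactating cow lay above every heifer (log2 fold change 1.57 ± 0.31, DESeq2 adjusted p = 0.0126). Of 18 tested genes of the cGMP list, 4 were lower and 2 were higher at an unadjusted edgeR p under 0.05, against 2.95% and 4.20% of all genes. The higher ones were PDE5A and PRKG1, the kinase that cGMP activates. PDE2A, a phosphodiesterase that cGMP stimulates, was at 19.5, 28.3, 8.53 and 34.7 CPM in lactating cows A to D and 63.5, 51.3, 43.2, 29.9 and 68.0 CPM in heifers A to E (log2 fold change -1.16 ± 0.34). GUCY1A3 and GUCY1B3, the subunits of the guanylate cyclase that nitric oxide activates, had log2 fold changes of -0.50 ± 0.16 and -0.55 ± 0.20. GUCY1B3 did not overlap between groups, at 21.2 to 32.5 CPM in the lactating cows and 33.0 to 53.6 CPM in the heifers, and the other 2 genes did. RUNX2, a transcription factor best known from bone, was at 25.6, 22.03, 32.4 and 26.2 CPM in lactating cows A to D and 9.24, 21.0, 10.8, 10.6 and 13.6 CPM in heifers A to E. Heifer B had the highest level of the heifers, just under the lowest lactating cow. RUNX2 had a log2 fold change of 1.05 ± 0.24 on 9 libraries (DESeq2 adjusted p = 0.0355) and of 1.28 without heifer B (adjusted p = 7.55e-05). Its partner CBFB had a log2 fold change of -0.22 ± 0.14 and its relative RUNX1 of -0.36 ± 0.34, neither at an unadjusted p under 0.05. MACC1, a regulator of the growth factor receptor gene MET, was at 6.50, 5.89, 6.44 and 3.07 CPM in lactating cows A to D and 1.41, 2.85, 1.76, 1.22 and 1.36 CPM in heifers A to E, where heifer B again came nearest to the lactating cows (log2 fold change 1.70 ± 0.38, DESeq2 adjusted p = 0.0497).

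PIGR, the receptor that carries immunoglobulin A across the epithelium, was at 38.7, 19.6, 34.7 and 43.9 CPM in lactating cows A to D and 15.7, 12.4, 7.68, 7.74 and 23.4 CPM in heifers A to E. Heifer E lay above lactating cow B, and the other heifers lay below all lactating cows (log2 fold change 1.36 ± 0.33, DESeq2 adjusted p = 0.0412). PIGR missed the DESeq2 threshold without heifer B, with 1.34 and an adjusted p of 0.0848. Among 19 tested genes of mucosal defence, PIGR and MUC20, a membrane mucin at 0.61 ± 0.19, were higher at an unadjusted edgeR p under 0.05 and none was lower. FYB, an adaptor known from T cells and platelets, was at 46.7, 25.1, 51.5 and 30.9 CPM in lactating cows A to D and 20.3, 20.5, 16.2, 19.8 and 15.7 CPM in heifers A to E (log2 fold change 1.08 ± 0.22, DESeq2 adjusted p = 0.0126). FYB was at a like level in lactating cows A and C, while the T or NK cell markers summed to 36.4 CPM in C and 94.0 CPM in A. The part of immune cells in the FYB values was not tested. ARHGAP29, an activator of small GTPase hydrolysis, was at 275, 177, 276 and 188 CPM in lactating cows A to D and 147, 142, 138, 160.1 and 114 CPM in heifers A to E (log2 fold change 0.72 ± 0.16, DESeq2 adjusted p = 0.0351). Lactating cows A and C were again the highest for ARHGAP29, and the groups did not overlap. SPATS2L ranged over 195 to 228 CPM in the lactating cows and 112 to 162 CPM in the heifers (log2 fold change 0.54 ± 0.13), and ZNF165, a zinc finger gene, over 6.14 to 22.4 CPM in the lactating cows and 2.85 to 5.22 CPM in the heifers (log2 fold change 1.63 ± 0.38). For both the groups did not overlap, and lactating cow C held the highest ZNF165. LOC768255, a locus without a name, was at 24.8, 7.03, 8.72 and 6.38 CPM in lactating cows A to D and 2.61, 2.07, 4.39, 2.65 and 4.26 CPM in heifers A to E, with lactating cow A at the top.

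IFT22, a small GTPase of the intraflagellar transport that builds cilia, was at 68.3, 67.0, 67.7 and 80.8 CPM in lactating cows A to D and 48.2, 51.6, 41.0, 52.6 and 50.7 CPM in heifers A to E. The groups did not overlap, and lactating cow D was the highest library (log2 fold change 0.55 ± 0.12, DESeq2 adjusted p = 0.0336). Of 37 tested genes of intraflagellar transport and cilia, 29 were above 0, but the median was only 0.12, and 2 were higher and none lower at an unadjusted edgeR p under 0.05. The other of the 2 was IFT57, at 476 to 598 CPM in the lactating cows and 338 to 436 CPM in the heifers without overlap (log2 fold change 0.40 ± 0.13). Markers of ciliated cells had a median of 0.21, with 2 of 8 higher at that threshold, against 4.20% of all genes. These were PIFO at 0.41 ± 0.11 and DNAH5, a heavy chain of ciliary dynein, at 0.39 ± 0.18. FOXJ1, the master regulator of motile cilia, was at 316, 271, 311 and 412 CPM in lactating cows A to D and 416, 320.1, 319, 365 and 318 CPM in heifers A to E, with overlapping groups. GMNC, an early factor of multiciliated cells, was lower at 77.3, 95.9, 87.0 and 59.5 CPM in lactating cows A to D and 90.0, 139, 107, 136 and 101 CPM in heifers A to E (log2 fold change -0.50 ± 0.17, edgeR adjusted p = 0.523).

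In the lists of hormone receptors and metabolic genes the counts below are read against 4.20% of all genes higher and 2.95% lower at an unadjusted edgeR p under 0.05. ESR2, the beta estrogen receptor, was at 12.1, 32.1, 18.2 and 13.5 CPM in lactating cows A to D and 31.7, 37.1, 39.3, 24.04 and 38.9 CPM in heifers A to E, and lactating cow B lay within the range of the heifers (log2 fold change -0.83 ± 0.27). Of 15 tested steroid receptor and steroid enzyme genes, 2 were higher and 2 lower at an unadjusted edgeR p under 0.05. In the growth hormone, insulin and IGF list 0 of 23 members were higher and 1 was lower, AKT2, a kinase of insulin signalling, at 18.4 to 31.0 CPM in the lactating cows and 31.2 to 36.8 CPM in the heifers (log2 fold change -0.46 ± 0.17). IRS1, the insulin receptor substrate, ranged over 86.8 to 100.4 CPM in the lactating cows and 67.1 to 91.5 CPM in the heifers (log2 fold change 0.19 ± 0.11). PPARGC1A, a coactivator of mitochondrial genes, was at 6.68, 15.6, 5.69 and 6.14 CPM in lactating cows A to D and 20.9, 11.4, 19.1, 17.1 and 26.7 CPM in heifers A to E (log2 fold change -1.14 ± 0.33, edgeR adjusted p = 0.515). It was the lower member, with 2 higher, among 32 tested genes of fatty acid oxidation, of which 16 were above 0. Glycolysis and glucose transport had 1 of 26 members higher, TPI1 at 0.39 ± 0.16, and 1 lower, SLC37A1. In the list of immediate early genes 1 of 24 members was higher and 1 lower, ATF3 at 0.78 ± 0.21 and ZFP36 at -0.74 ± 0.27, and the median was -0.11.

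Of 41 tested interferon response genes, 4 were higher and 2 lower at an unadjusted edgeR p under 0.05, shares near the 4.20% and 2.95% of all genes, 22 were above 0, against 50.5%, and the median log2 fold change was 0.10. IRF1, a transcription factor of the interferon response, was at 136, 22.8, 111 and 31.4 CPM in lactating cows A to D and 38.6, 17.1, 37.8, 40.1 and 21.7 CPM in heifers A to E. PSMB8 and PSMB9, subunits of the immunoproteasome, were at 40.2, 10.1, 46.4 and 16.3 CPM and 73.8, 9.31, 62.0 and 15.4 CPM in lactating cows A to D. These 3 genes were above the heifers in lactating cows A and C and no higher than the highest heifer in B and D. IFI6, an interferon-induced mitochondrial protein, was at 154, 76.5, 88.5 and 58.1 CPM in lactating cows A to D and 202, 28.8, 208, 340.2 and 903 CPM in heifers A to E. USP18, which removes the ubiquitin-like ISG15, was at 2.64, 2.09, 3.41 and 1.42 CPM in lactating cows A to D and 4.82, 3.63, 4.39, 8.76 and 15.3 CPM in heifers A to E. Heifer E had the highest level of both, and all 4 lactating cows lay below the heifers for USP18 (log2 fold change -1.60 ± 0.47, edgeR adjusted p = 0.515). Without lactating cow A the list had 1 member higher and 2 lower, and without lactating cow C 0 higher and 3 lower.

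The genes with the largest differences among those without overlap and with an unadjusted edgeR p under 0.01 were mostly scarce transcripts. NDP, a ligand of Wnt receptors, was at 1.58, 3.42, 0.379 and 4.25 CPM in lactating cows A to D and 11.0, 4.41, 11.0, 4.48 and 8.33 CPM in heifers A to E (log2 fold change -1.71 ± 0.53). UTS2B, a urotensin-like peptide, was at 9.84, 3.798, 10.4 and 5.43 CPM in lactating cows A to D and 10.6, 15.0, 10.5, 23.4 and 42.4 CPM in heifers A to E (log2 fold change -1.45 ± 0.45). Heifer B for NDP and heifer C for UTS2B lay just above the highest lactating cow. TRAF4, an adaptor of epithelial cells, was at 3.51, 4.18, 5.88 and 4.72 CPM in lactating cows A to D and 7.43, 6.999, 12.3, 11.8 and 10.8 CPM in heifers A to E (log2 fold change -1.10 ± 0.27). GRIK2 and POU5F2 had log2 fold changes of -1.38 ± 0.45 and -1.33 ± 0.41, and HUNK, a kinase, of -0.96 ± 0.31. On the higher side, LAPTM5, a lysosomal protein of leukocytes, was at 69.7, 9.69, 12.9 and 12.8 CPM in lactating cows A to D and 7.83, 3.89, 6.80, 7.74 and 5.23 CPM in heifers A to E (log2 fold change 2.08 ± 0.54). CD96, a receptor of T and NK cells, was at 10.01, 3.61, 3.41 and 3.78 CPM in lactating cows A to D and 1.61, 0, 0.659, 2.24 and 1.74 CPM in heifers A to E (log2 fold change 2.02 ± 0.60). BIN2, a leukocyte protein, was at 11.2, 3.61, 2.46 and 2.83 CPM in lactating cows A to D and 0, 1.30, 0.878, 2.04 and 1.36 CPM in heifers A to E (log2 fold change 2.19 ± 0.67). Lactating cow A was the highest library for all 3, as it was for the immune cell markers, whose part in these differences was not tested. ACVRL1, a receptor of BMP ligands in vessels, was at 3.69, 2.09, 2.08 and 6.61 CPM in lactating cows A to D and 1.61, 0, 0.220, 1.02 and 1.16 CPM in heifers A to E, near the floor of 3 counts (0.540 to 0.795 CPM) in heifers B and C (log2 fold change 2.09 ± 0.65). None of these genes was called by DESeq2 apart from those described above.

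Leaving out heifer B changed the DESeq2 calls in part. DESeq2 called 33 genes without it (0.240% of those with an adjusted p), 16 higher and 17 lower, of which 17 were among the 22 on 9 libraries. edgeR and limma-voom called 0 each, 1038 and 1007 genes had an unadjusted p below 0.05, and edgeR's were 601 higher (4.37%) and 437 lower (3.18%). Calls were lost for ARHGAP29, C1QB, LOC768255, PIGR and ZNF165, whose DESeq2 adjusted p lay between 0.0637 and 0.0981. Of the 16 gained, MSMO1 belongs to cholesterol synthesis and ZFP36, an RNA-binding protein that degrades cytokine transcripts, to the immediate early list, and the following, given with the log2 fold change of DESeq2 without heifer B, were chosen after their values were seen. DSC3, a desmosomal cadherin, was lower at -1.74 ± 0.36 (DESeq2 adjusted p = 0.00337), with 9.49, 8.55, 5.12 and 19.6 CPM in lactating cows A to D and 42.4, 2.59, 36.7, 22.4 and 42.6 CPM in heifers A to E. DUSP6, a phosphatase of ERK, was lower at -1.21 ± 0.30 (DESeq2 adjusted p = 0.0288), with 14.4, 14.4, 14.4 and 20.3 CPM in lactating cows A to D and 32.7, 18.9, 42.1, 19.6 and 54.4 CPM in heifers A to E. CDK6, a kinase of the G1 phase, was higher at 1.48 ± 0.37 (DESeq2 adjusted p = 0.0378), with 21.8, 8.74, 21.2 and 11.6 CPM in lactating cows A to D and 7.03, 12.7, 5.93, 6.52 and 3.68 CPM in heifers A to E. For each of the 3 genes heifer B lay among the lactating cows or, for DSC3, below all of them.

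**Figure D4:**
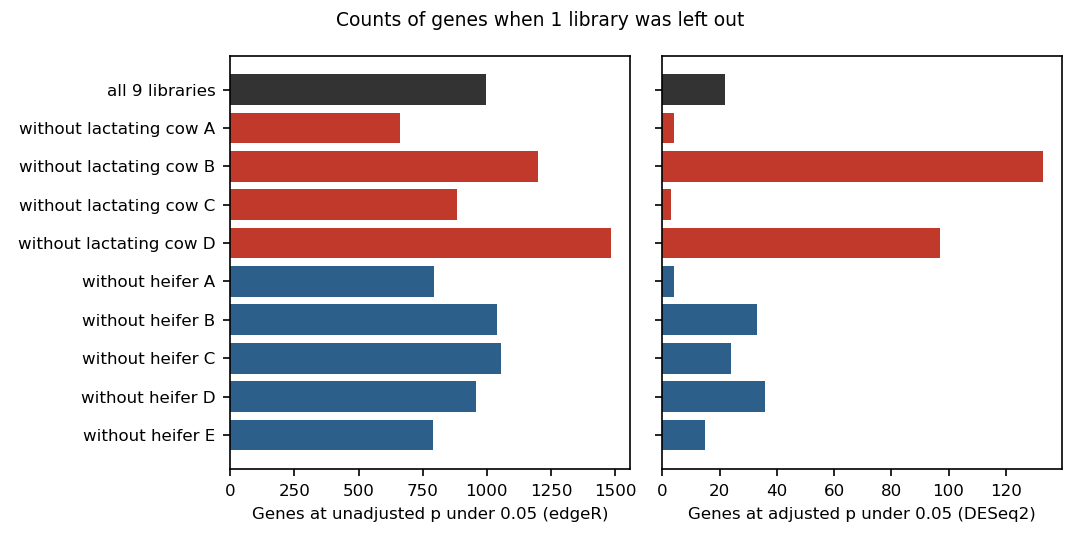
Number of genes at an unadjusted p under 0.05 by edgeR (left) and at an adjusted p under 0.05 by DESeq2 (right), on all 9 libraries (top bar) and with 1 library left out (red: lactating cow, blue: heifer). The DESeq2 count goes from 3 without lactating cow C to 133 without lactating cow B.

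The number of DESeq2 calls moved with the library left out. It was 4 without lactating cow A, 133 without B, 3 without C and 97 without D, and 4, 33, 24, 36 and 15 without heifers A to E. The edgeR count at an unadjusted p under 0.05 went from 661 without lactating cow A to 1483 without lactating cow D. CENPF and GLB1 were called in all 9 of these DESeq2 fits. Without heifer B and lactating cow B, the libraries with a tag at odds with the profile, DESeq2 called 96 genes, 18 of the 22 among them, and edgeR 0.

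Libraries of the contralateral ampulla and of the ipsilateral isthmus came from the same animals by their tags, or for lactating cow B by its profile. They are other tissues of these animals and not separate replicates, with the doubt on heifer B given above. By edgeR no gene passed an adjusted p under 0.05 at either place, and 659 and 1446 genes had an unadjusted p below 0.05. In the contralateral ampulla, 14 of 41 mitosis genes were higher at an unadjusted edgeR p under 0.05, against 2.50% of all genes, and none was lower, with a median of 0.62. CENPF was at 1.51 ± 0.46 (SE) and KIF11 at 1.97 ± 0.56 on the log2 scale. In the ipsilateral isthmus 8 of 33 were higher, against 5.53% of all genes, with CENPF at 1.09 ± 0.52 and KIF11 at 0.98 ± 0.40. MKI67 was at 1.93 ± 0.64 in the contralateral ampulla and at 0.80 ± 0.61 in the isthmus. Cholesterol synthesis genes were lower at both places, 4 of 25 in the contralateral ampulla (2.23% of all genes) and 14 of 25 in the isthmus (4.92%), with medians of -0.27 and -0.53. CYP51A1 had -0.50 ± 0.22 and -0.56 ± 0.14 in that order. BLA-DQB was higher at both, at 3.47 ± 0.70 and 3.81 ± 0.66, as were C1QB, at 1.52 ± 0.58 and 1.58 ± 0.46, and FYB, at 0.76 ± 0.33 and 1.67 ± 0.42. GLB1 had -1.33 ± 0.39 in the contralateral ampulla and -0.61 ± 0.27 in the isthmus.

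**Figure D5:**
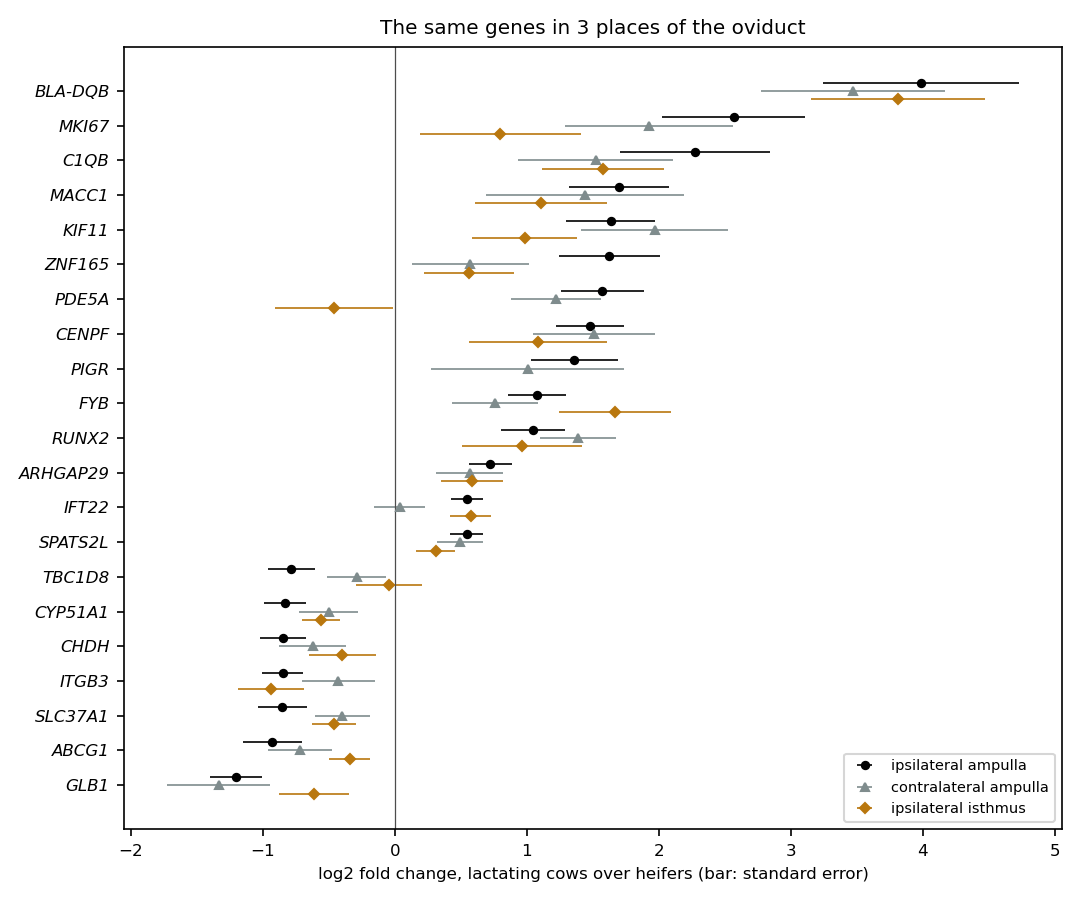
Log2 fold change with its standard error, lactating cows over heifers, of the 21 named genes called by DESeq2 in the ipsilateral ampulla, at the ipsilateral ampulla (circles), the contralateral ampulla (triangles) and the ipsilateral isthmus (diamonds). Points of a gene lie on 1 side of 0 except those of PDE5A, which is at -0.46 in the isthmus, where PIGR has no value because its counts were under the filter.

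Interaction tests compared the difference between places. By edgeR no gene had an adjusted p under 0.05 for the interaction of group with side in the ampulla (0% of 14704, with 237 genes or 1.61% at an unadjusted p under 0.05), nor did DESeq2 call any (284 at that threshold). The interaction of group with region on the ipsilateral side also had 0 genes (0% of 14823, with 531 or 3.58% at an unadjusted p under 0.05), and 0 by DESeq2 (549). With the animal as a block the counts were again 0, and 326 and 844 genes had an unadjusted p below 0.05. That block followed the tags, so it left out lactating cow B and kept heifer B paired by its tag in spite of the doubt on it. IFT22, which was at 0.04 ± 0.19 in the contralateral ampulla, had a side interaction of 0.51 (adjusted p = 0.9995) by edgeR. PDE5A, at 1.22 ± 0.34 in the contralateral ampulla and -0.46 ± 0.45 in the isthmus, had a region interaction of 2.04 (adjusted p = 0.9999) by edgeR. TBC1D8, at -0.04 ± 0.25 in the isthmus, had one of -0.74 (adjusted p = 0.9999). None of the 3 held after adjustment, so no difference between places was shown for any gene.

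Non-lactating cows had calved but were not milked, and their values are given beside the others because these comparisons share libraries. By edgeR neither comparison with them in the ipsilateral ampulla had a gene at an adjusted p under 0.05, with 497 genes at an unadjusted p under 0.05 against heifers and 502 against lactating cows. Of the 5 non-lactating libraries, B is the one that matched heifer B, and C carried the tag of lactating cow B with a profile of non-lactating cow C (r = 0.86). BLA-DQB was at 19.2, 14.2, 12.7, 7.27 and 28.1 CPM in non-lactating cows A to E, with a log2 fold change of 0.72 ± 0.48 over heifers and 3.27 ± 0.65 for lactating over non-lactating cows. GLB1 was at 206, 290.3, 102, 141 and 184 CPM, with -0.20 ± 0.24 and -1.01 ± 0.26. CENPF was at 13.4, 14.4, 41.7, 32.5 and 9.76 CPM, with 1.15 ± 0.36 and 0.32 ± 0.39, and MKI67 at 6.53, 6.20, 52.5, 59.8 and 12.9 CPM, with 2.90 ± 0.62 and -0.34 ± 0.73. ABCG1 had -0.20 ± 0.24 and -0.73 ± 0.27, and CYP51A1 -0.12 ± 0.24 and -0.72 ± 0.27. None of these contrasts was tested against another.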

How the data were processed

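RNA of oviductal epithelial cells was sequenced by the authors with stranded single-end libraries (NuGEN Encore Complete), demultiplexed with bcl2fastq 1.8.4, trimmed of adapters and poly-A, aligned to the bovine build Btau_4.6.1 (bosTau7) with TopHat2 2.0.13 and counted by strand with HTSeq 0.6.1 in the intersection-strict mode. The deposited values are raw counts per gene and library in 1 table, and the authors tested them with DESeq2. Genes are named by the symbols of that table, no coordinates are given, and near-identical genes such as those of the MHC may share or lose reads. The 5 summary lines of the table were left out, and 0 per-sample columns remained unused.

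Groups and animals were taken from the labels and the column names. Genes were kept by edgeR's filterByExpr (minimum count 10), scaled by TMM and tested with the quasi-likelihood test of edgeR 4.0.16 (R 4.3.3), without covariates and with Benjamini-Hochberg adjustment at 0.05. CPM were computed from the counts with the TMM library sizes, with a prior count of 2 in log2 values and a floor of 3 counts. Alternatives were RLE size factors, DESeq2 1.42.0, limma-voom (limma 3.58.1), no filter, robust dispersions, each library left out, heifer B and lactating cow B left out together, and all ipsilateral libraries in 1 fit. Interactions with side and region were fitted over the libraries of both places, without and with a block for the animal, read from the tag in the column name. The block kept only animals whose tag occurred at both places, which left out lactating cow B. Deviations from the group mean were correlated between libraries with the same tag, across 10616 genes. The median r was 0.32 over 8 pairs with the contralateral ampulla (6 of them above 0.1). With the isthmus it was 0.236 over 8 pairs (7 above 0.1). Heifer B, paired by its tag in spite of the doubt on it, was at 0.26 and 0.04 in that order. Heifers C and E were at 0.08 and -0.006 with the contralateral ampulla. Identity was checked over 200 genes in all 56 libraries, of which 52 matched their own animal best (r = 0.642 to 0.958). The 200 genes were picked with the tags of those 52 libraries, which favoured their match. The libraries whose tag and profile disagreed had no part in picking the genes. Within each group of the 9 libraries, no pair agreed within counting noise, and other pairs were not compared in this way. The scripts were tested on simulated data.

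The genes named are all those called by edgeR or by DESeq2, the 8 with the largest and the 8 with the smallest log2 fold change among those with an unadjusted p under 0.01, a symbol, a mean of at least 1 CPM and no overlap, and up to 4 members per list with the smallest p. Others were chosen after their values were seen, and a few genes that the rule names are not reported here. The lists, 710 entries of which 667 were found, and the members of the comparison were chosen with earlier results of these data known, so no count over a list is independent evidence.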

Additional observations from a re-analysis of the deposited data

Results flagged for a closer look

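A library stood far from the others of its group for 7 of the named genes, by the gap to the nearest library relative to the range of the group. IFT22 was at 80.8 CPM in lactating cow D, against 68.3 CPM in the nearest lactating cow, and ITGB3 at 37.2 CPM in lactating cow B, against 27.6 CPM. PDE5A was at 6.52 CPM in heifer D, against 4.65 CPM in the nearest heifer. The other 4 were in lactating cow A, with LAPTM5 at 69.7 CPM (nearest 12.9), BIN2 at 11.2 CPM (nearest 3.61), CD96 at 10.01 CPM (nearest 3.78) and LOC768255 at 24.8 CPM (nearest 8.72). Lactating cow A also had the highest macrophage, T or NK cell and B or plasma cell markers of the 9 libraries. In all, 68 groups of values were checked, and chance picks out about 1 in 20.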

How the results depend on the processing

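The 0 calls by edgeR held with RLE size factors, robust dispersions, limma-voom and all ipsilateral libraries in 1 fit. DESeq2 called 22 genes, edgeR without the low-count filter called 2 (BLA-DQB and GLB1), and edgeR with 1 library left out called 0 to 1. The count at an unadjusted p under 0.05 was 1505 without the filter and 661 to 1483 with 1 library left out. DESeq2 called 3 to 133 genes with 1 library left out and 96 without heifer B and lactating cow B, fits that were chosen after seeing the data, and the cause was not tested. Of the MHC class II genes, limma-voom had 3 higher at an unadjusted p under 0.05 in place of 7 (6 to 10 with 1 library left out), and of the complement genes 4 in place of 9 (3 to 10, the lowest without lactating cow A). Of the cholesterol synthesis genes, 5 were lower without heifer B and lactating cow B in place of 9. The 123 named genes had 2205 values of their log2 fold change under other settings. Of these, 2171 kept their direction and side of the adjusted p threshold of 0.05, and 25 passed that threshold in addition. The other 9 turned sign, in 5 genes that did not pass it on 9 libraries. Because edgeR called 0 genes on 9 libraries, no value could lose a call, and the 2171 are no measure of how stable calls were. With 1 library left out, OVGP1 ranged from -0.73 to 0.014 and MSX1 from -0.90 to 0.049 (both highest without lactating cow C), DES from -0.073 without lactating cow D to 0.84, and IGJ from -0.45 without lactating cow A to 2.18. COL1A2 ranged from -0.23 to 0.15, above 0 without lactating cow A, heifer A or heifer B, and was 0.012 by limma-voom and 0.18 without heifer B and lactating cow B. With the replicate block, the animal as a term, the interactions with side and region had 0 and 0 calls, as they did with lactating cow B paired by its profile and heifer B left out, and the block changed no call. No paired analysis was possible for the comparison of lactating cows with heifers itself because the groups hold different animals.

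With 4 and 5 animals a group and about 10.1 to 12.8% of the alignments on genes, the counts limited scarce genes most, where 3 counts were 0.540 to 0.795 CPM. Heifer B and a non-lactating cow each matched the profile of the other in place of their own tag, and whether these libraries were exchanged was not tested. Lactating cow A was the highest library for several immune genes. Lactation and a previous calving differed together between the groups.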

Other observations

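Genes that interferon gamma is known to induce were read beyond the lists, and they and the genes of the next paragraph were chosen after their values were seen. CXCL10, a chemokine of T cells, was at 130.2, 1.33, 19.0 and 4.02 CPM in lactating cows A to D and 2.01, 0.778, 1.76, 7.54 and 2.52 CPM in heifers A to E (log2 fold change 3.72 ± 1.05, edgeR adjusted p = 0.515). IDO1, which degrades tryptophan, was at 149, 3.42, 96.5 and 3.31 CPM in lactating cows A to D and 0.602, 0, 0.439, 11.2 and 2.52 CPM in heifers A to E (log2 fold change 4.39 ± 1.16). WARS, the tryptophanyl-tRNA synthetase, was at 597, 100.3, 782 and 221 CPM in lactating cows A to D and 168, 122, 168, 151 and 142 CPM in heifers A to E (log2 fold change 1.52 ± 0.44). Lactating cows A and C were the highest libraries for all 3, and lactating cow B lay within the range of the heifers for CXCL10 and IDO1 and below it for WARS. GBP2, a guanylate-binding protein, PSMB10, an immunoproteasome subunit, LAP3, a peptidase, and ICAM1, an adhesion molecule, had the same 2 libraries at the top, with log2 fold changes of 2.60 ± 0.76, 1.35 ± 0.41, 1.36 ± 0.43 and 1.23 ± 0.41. VCAM1, at 179.6, 1.52, 10.4 and 8.98 CPM in lactating cows A to D, and CCL5, a chemokine of T cells at 66.9, 8.36, 5.12 and 6.38 CPM, were high in lactating cow A above all, the library with the highest macrophage and T or NK cell markers. For none of these genes did DESeq2 give an adjusted p under 0.05, and for VCAM1 and CCL5 it gave no adjusted p at all.

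MET, the receptor of hepatocyte growth factor, was at 103, 81.1, 159 and 75.8 CPM in lactating cows A to D and 73.7, 52.1, 63.2, 74.4 and 69.9 CPM in heifers A to E, with every lactating cow above every heifer (log2 fold change 0.67 ± 0.21, edgeR adjusted p = 0.515). ERBB4, a receptor of neuregulins, was at 39.2, 47.9, 41.3 and 39.5 CPM in lactating cows A to D and 34.1, 33.4, 27.7, 33.0 and 30.0 CPM in heifers A to E and did not overlap either (log2 fold change 0.42 ± 0.13). CCL28, a chemokine that draws antibody-secreting cells to mucosa, was at 20.6, 22.6, 21.0 and 20.8 CPM in lactating cows A to D and 14.1, 12.7, 13.8, 17.7 and 15.3 CPM in heifers A to E, again without overlap (log2 fold change 0.54 ± 0.16). LRP1, an endocytic receptor of lipoproteins, was at 159 to 215 CPM in the lactating cows and 123 to 154 CPM in the heifers (log2 fold change 0.40 ± 0.12). TXNIP, which glucose induces, ranged over 668 to 1073 CPM in the lactating cows and 497 to 693 CPM in the heifers with overlap (log2 fold change 0.56 ± 0.16). The chaperones HSP90AA1 and HSPE1 had log2 fold changes of 0.57 ± 0.19 and 0.57 ± 0.17, and AGR3, a disulfide isomerase of secretory and ciliated cells, of -1.26 ± 0.41.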
